A study of Homo sapiens with 23 samples.

Results

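Ribosome biogenesis and nucleolar genes are the 36 genes described here, out of 60605 gene identifiers in the count table. They were chosen by symbol, through the GENCODE release 44 annotation, for what their products do. The rule used no measured value, though earlier results of these data were known when the genes were chosen. By role they are the box C/D snoRNP genes NOP56, NOP58 and FBL; the box H/ACA snoRNP genes DKC1, NHP2, NOP10 and GAR1; the small subunit processing genes RRP9, UTP4, UTP20, WDR43, HEATR1, RRP12 and BYSL; the large subunit assembly genes BOP1, PES1, WDR12, NOP2, NOP16, RRP1B, PPAN, NIFK, GNL3 and GRWD1; the nucleolar scaffold, helicase and chaperone genes NCL, NPM1, NOLC1, DDX21, LYAR and MYBBP1A; and the RNA polymerase I genes POLR1A, POLR1B, POLR1C, UBTF, RRN3 and TAF1D. All 36 were found in the table, and all 36 passed the filter on low counts.

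The data are precision run-on sequencing (PRO-seq) counts, in which a read is meant to mark an RNA polymerase caught while transcribing a gene. The cells were T47D, a luminal breast cancer line that expresses the estrogen receptor, as 1 clone (clone 28) that carries a degron tag on its own TRPS1, a GATA-family zinc finger repressor. In each treated group the tagged protein was removed with dTAG-13 and dTAG-V-1, at 50 nM each, for 0.5, 1, 2, 4 or 24 h, while the control group had 0.1% DMSO, the solvent of both ligands, for 24 h. DMSO and the treated groups from 0.5 to 4 h had 4 libraries each, and 24 h had 3, which are replicates 2, 3 and 4. The control cells carry the tag as well, and no untagged or second clone is part of these comparisons. Replicates were dishes of the same clone handled at separate times in 1 day, so a test measures the spread between these dishes and not between clones.

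A ribosome begins with RNA polymerase I, which transcribes the precursor of the large ribosomal RNAs in the nucleolus. Small nucleolar RNAs (snoRNAs), bound to box C/D or box H/ACA proteins, guide methylation and pseudouridylation of this precursor, and processing complexes then cut and fold it into the small and large subunits. The pathway takes up much of the transcription of a growing cell, and MYC is a known activator of many of its genes. All 36 genes are themselves read by RNA polymerase II, and many snoRNAs lie inside introns of genes for ribosomal or nucleolar proteins.

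The 23 libraries held 4408544 to 17571616 counts (median 9768427), and the 36 genes held between 0.202% and 0.312% of a library. The replicate 1 libraries stood apart. The genes' share was 0.259% to 0.312% in them against 0.202% to 0.246% in replicates 2 to 4, and all annotated snoRNA genes together took 0.682% to 1.11% against 0.167% to 0.462%. Their totals were lower (median 7001408 against 11507673) and their mitochondrial share was higher (median 3.75% against 2.46%). Since 24 h had no replicate 1 library, 24 h is compared below also with replicate 1 left out. Luminal markers were all detected, 8 of 8, at a summed 5670 to 7370 counts per 1000000 counts of the library (CPM). The basal markers KRT5, KRT14 and KRT17 summed to 0.0909 to 0.714 CPM, and the leukocyte, fibroblast and endothelial lists stayed at 17.9 CPM or less, with no marker at 0 in every library. The degron removes the TRPS1 protein, so counts of the TRPS1 gene do not check the treatment. In dishes of many cells, fewer cells that transcribe a gene and less transcription per cell cannot be told apart.

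Some of these genes share their span with others, which limits what a count says. On the same strand 6 of the 36 overlap another annotated gene. The whole span of PPAN lies in such genes, among them the readthrough gene PPAN-P2RY11, as does 99.8% of that of NOP2 (in ENSG00000285238). Of the UTP4 span 44.1% lies in SNTB2, and 1 other gene overlaps UTP4 too. On the other strand 18 overlap a gene, and RRN3 lies wholly opposite PDXDC1, as NOP16 does opposite ARL10 and 1 other gene. In this table, genes that lie inside another gene on the opposite strand had a median read density of 0.0409 of the host's (1221 genes), against 0.938 on the same strand (611 genes), so opposite strands were kept apart for the most part. RRN3 and NPM1 also have near-identical pseudogene copies, so their counts depend on how such reads were aligned.

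Some of the 36 genes carry guide RNA genes in their introns, whose counts fall within the host's span. The hosts are the 8 genes in which nested small RNA genes took more than 1% of the counts, namely NOP56, NOP58, DKC1, WDR43, PPAN, GNL3, NCL and TAF1D, and the other 28 genes are called non-hosts. For 7 hosts the nested snoRNA with the most counts lies in an intron of the main transcript, and its hg38 sequence is shown 5′ to 3′, with box C (TGATGA) and box D (CTGA) of a box C/D snoRNA, or the ACA box of a box H/ACA snoRNA, in capitals.
SNORD110, in intron 3 of NOP56 at chr20:2654212-2654286, plus strand: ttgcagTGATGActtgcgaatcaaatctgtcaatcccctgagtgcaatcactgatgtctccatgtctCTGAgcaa
SNORD11B, in intron 8 of NOP58 at chr2:202291332-202291421, plus strand: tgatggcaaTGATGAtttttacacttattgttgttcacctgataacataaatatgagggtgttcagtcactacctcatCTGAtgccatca
SNORA36A, in intron 8 of DKC1 at chrX:154768528-154768659, plus strand: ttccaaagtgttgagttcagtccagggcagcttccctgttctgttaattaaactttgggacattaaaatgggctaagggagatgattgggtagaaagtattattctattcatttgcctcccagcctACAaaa
SNORD53, in intron 9 of WDR43 at chr2:28927067-28927144, plus strand: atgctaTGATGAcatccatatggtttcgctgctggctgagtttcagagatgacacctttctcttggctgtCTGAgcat
SNORD105, in intron 3 of PPAN at chr19:10107651-10107735, plus strand: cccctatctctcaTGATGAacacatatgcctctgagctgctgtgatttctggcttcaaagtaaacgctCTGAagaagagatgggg
SNORD69, in intron 9 of GNL3 at chr3:52692736-52692812, plus strand: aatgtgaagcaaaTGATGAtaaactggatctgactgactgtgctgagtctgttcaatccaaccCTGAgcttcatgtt
SNORD20, in intron 11 of NCL at chr2:231456444-231456523, minus strand: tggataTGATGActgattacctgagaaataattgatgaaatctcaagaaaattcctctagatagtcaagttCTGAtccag

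These short stretches held a large part of the hosts' counts. Whether all reads in them marked transcribing polymerases was not tested. The 85 bases of SNORD105 took 23.2% of the PPAN counts over all libraries, and the 132 bases of SNORA36A took 23.8% of those of DKC1, the pseudouridine synthase of the box H/ACA particle. SNORD110 took 11.4% of the NOP56 counts and SNORD69 took 8.63% of those of GNL3. Nested small RNA genes together took 42.3% of the counts of PPAN, 32.2% of NOP56, 26.6% of GNL3, 26.0% of DKC1, 17.7% of NOP58, 16.6% of TAF1D, 11% of NCL and 9.01% of WDR43.

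The share followed the replicate number more than the treatment. In PPAN it was 67.3% to 81.0% in the 5 replicate 1 libraries and 11.1% to 56.7% in the other 18. In GNL3 it was 47.6% to 62.1% against 12.2% to 34.9%, and in NCL, the nucleolin gene, 21.9% to 25.9% against 4.61% to 12.1%. In each of the 8 hosts, every replicate 1 library had a higher share than any library of replicates 2 to 4, as the plot of nested shares shows. Over the 8 hosts together the share was 35.7%, 23.5%, 12.6% and 17.1% in DMSO replicates 1 to 4, and 13.1%, 8.23% and 11.6% in 24 h replicates 2 to 4. Each of the 24 h libraries was thus below the DMSO library of its number.

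**Figure D1:**
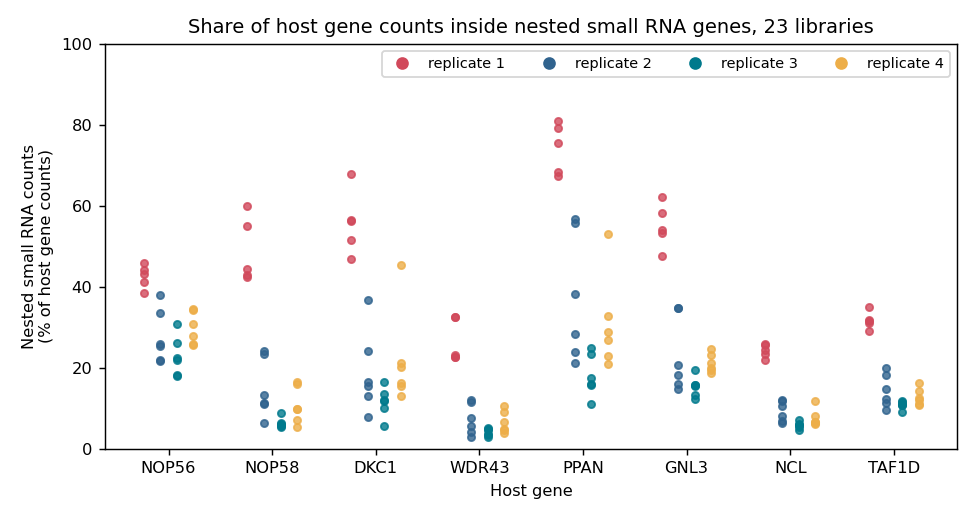
Percent of each host gene's counts that lay inside nested small RNA genes, for the 8 host genes (x axis). Each point is 1 of 23 libraries, coloured by replicate number. The 5 replicate 1 points sit above all others in each gene, up to 81.0% in PPAN.

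Summed over the genes, hosts varied with the replicate number more than non-hosts. The hosts summed to 1301 to 1931 CPM in replicate 1 and to 660.4 to 1046 CPM in replicates 2 to 4, whatever the treatment. With nested counts subtracted the replicate 1 libraries still lay higher, at 842.2 to 1141 CPM against 606.0 to 811.6 CPM. The 28 non-hosts summed to 1369 to 1474 CPM in replicate 1 and 1321 to 1451 CPM in the others.

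**Figure D2:**
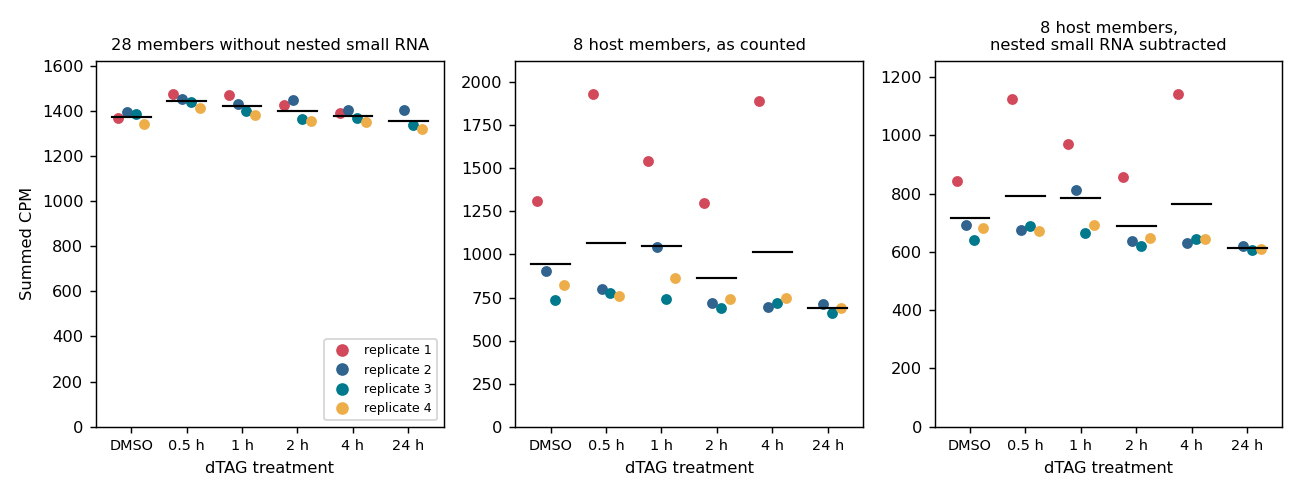
Summed CPM of the 28 non-host genes, of the 8 hosts as counted, and of the 8 hosts with nested small RNA counts subtracted. Points are libraries coloured by replicate number, black bars are group means, and the y axes start at 0. Replicate 1 lies apart for the hosts only, and the 4 non-host points at 0.5 h (1413 to 1474) lie above all 4 DMSO points (1343 to 1395).

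Promoter sequence was not used to choose the genes. RefSeq promoter windows of 300 bases (GRCh38.p14, 250 before the start and 50 after it) were matched by symbol for 31 of the 36 genes. CACGTG, the E-box that MYC and MAX bind, which reads the same on both strands, was present in 10 of these 31 (32.3%) and in 26 of 85 windows of other ribosome biogenesis genes (30.6%), against 7.43% of all 27305 windows. GATAA (or TTATC), the core of GATA sites, was in 3 of the 31 (9.68%) against 23.2% of all, and AGGTCA (or TGACCT), an estrogen receptor half-site, in 4 (12.9%) against 13.9%. None of the 3 motifs holds another, and a match is only a match of letters. Shown with their flanks on the gene's strand, and with the E-box in capitals, are the sites of UTP20, PES1 and NOP2, whose values are given library by library, and the sites nearest to the start in FBL and NOP10, of the box C/D and H/ACA particles.
UTP20, chr12:101280083-101280112, plus strand: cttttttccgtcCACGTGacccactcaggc
NOP10, chr15:34343130-34343159, minus strand: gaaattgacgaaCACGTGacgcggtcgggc
FBL, chr19:39846356-39846385, minus strand: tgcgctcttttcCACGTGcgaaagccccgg
PES1, chr22:30591880-30591909, minus strand: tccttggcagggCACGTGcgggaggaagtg
NOP2, chr12:6568242-6568268, minus strand: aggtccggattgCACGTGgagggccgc
Of the 11 sites in the 10 genes, 10 began between base -16 and base 36 relative to the start (base 1), the other one being a second site of NOP10 at -170. RRP9, UTP4, WDR43, BYSL and MYBBP1A held the remaining sites.

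In DMSO the 36 genes differed widely in nascent transcription. The level is given as CPM per kilobase of gene span, after nested small RNA counts were subtracted, as mean ± SD of 4 libraries. NOP56, a core box C/D protein, was highest at 13.7 ± 5.56, followed by NPM1, the nucleolar chaperone nucleophosmin, at 7.62 ± 0.205. TAF1D, a subunit of the RNA polymerase I selectivity factor, was at 5.16 ± 0.647 and NOP16 at 5.11 ± 0.669. The lowest was WDR12, a partner of PES1 and BOP1 in large subunit assembly, at 0.38 ± 0.0249. Its partners were just above it, with BOP1 at 0.557 ± 0.0585 and PES1 at 0.644 ± 0.0523. This level depends on the whole annotated span, which was 140.5 kilobases in WDR12, 29.39 in BOP1 and 30.46 in PES1. Before division by span, their mean CPM in DMSO was 53.41, 16.38 and 19.61, in this order.

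The median gene was at 1.64 CPM per kilobase. By role, median levels were 3.72 for the scaffold, helicase and chaperone genes, 2.47 for box H/ACA, 1.92 for box C/D, 1.56 for large subunit assembly, 1.41 for RNA polymerase I and 1.08 for small subunit processing. Of the 35 neighbouring pairs in the order, 30 overlapped in range over the 4 libraries, so that only the gaps below NOP56, NPM1, NHP2, UTP4 and BOP1 separated neighbours. In NOP56 the highest library, at 21.2, and the lowest, at 8.18, differed more than in any other of the 36 genes. These were DMSO replicates 1 and 3, in which the nested share of NOP56 was also highest and lowest, at 38.46% and 30.79%. Whether its level after subtraction follows that share was not tested.

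**Figure D3:**
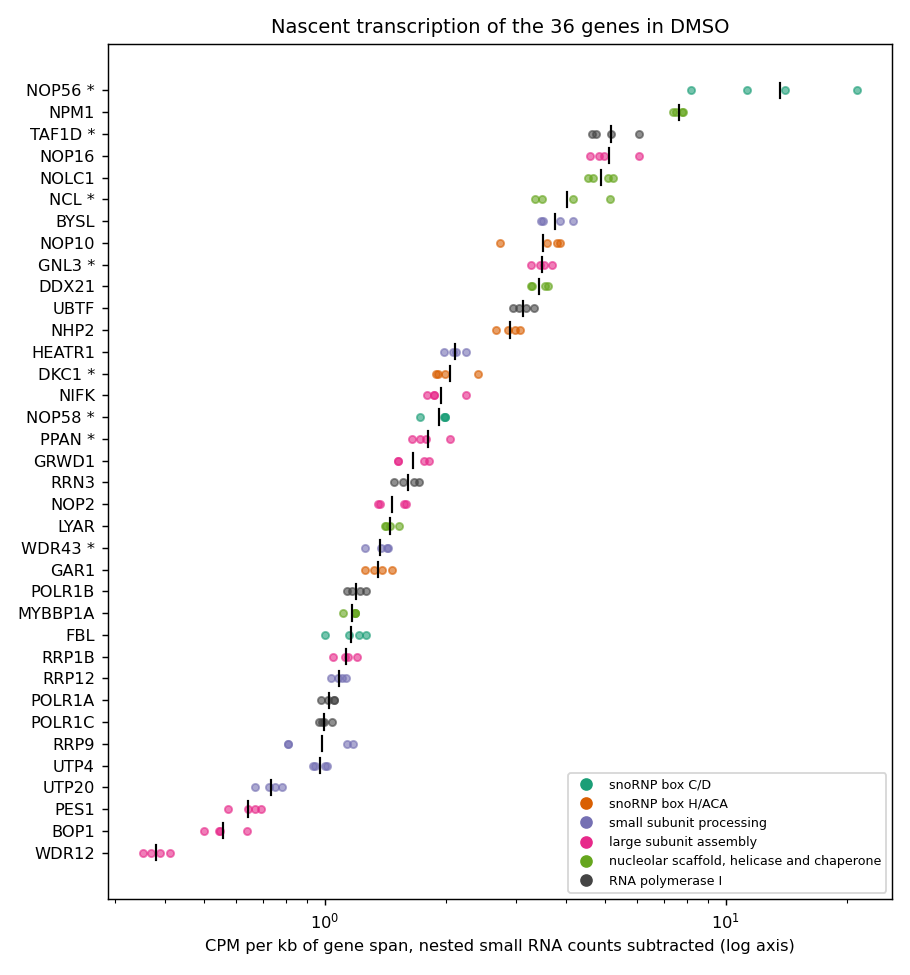
Nascent transcription of the 36 genes in the 4 DMSO libraries, as CPM per kilobase of span on a log axis, with nested small RNA counts subtracted. Points are libraries coloured by role, black bars are means, and an asterisk marks a host gene. NOP56 (mean 13.7) is at the top and WDR12 (0.38) at the bottom.

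The question put to the time course was whether loss of TRPS1 changes transcription of these genes, and when. Changes are log2 fold changes from edgeR with their standard errors (SE), and a gene is called when its adjusted p, over all 26057 genes tested, is under 0.1, which limits the expected share of false calls (false discovery rate). Every time point is set against the same 4 DMSO libraries, so the comparisons are not independent of each other. At 0.5 h 1 of the 36 genes rose, NPM1, and none fell, where 0.476% of all genes were called and 0.234% rose. At 1, 2, 4 and 24 h edgeR called none of the 36, against 1.25%, 0.733%, 0.833% and 0.863% of all genes. The genes under an unadjusted p of 0.05 numbered 5, 1, 1 and 1 of 36, where 9.42%, 7.1%, 7.47% and 7.38% of all genes were under it. DESeq2 also called none of the 36 at these times, where it called 2.22%, 1.85%, 1.98% and 2.09% of the genes that its own filter left (14926, 15431, 14926 and 16441), and at 0.5 h it called NPM1 and 1.88% of 13917 genes. Over the whole time course 1 of 36 was called, again NPM1, against 2.71% of all genes. The direct contrast of 24 h with 0.5 h called 2, NPM1 and HEATR1, both lower at 24 h, against 1.99% of all genes called and 0.791% lower.

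NPM1 lies at chr5:171387116-171411810 on the plus strand. Its CPM in DMSO was 182.2, 192.9, 191.9 and 185.9 in replicates 1 to 4. At 0.5 h of dTAG it was 219.5, 216.5, 212.5 and 203.2. All 4 treated libraries lay above all 4 controls. Each treated library was also above the control of its own number, and the log2 fold change was 0.18 ± 0.0382 (edgeR adjusted p = 0.0522). Scaled by total counts only, or with no filter on low counts, NPM1 was not called (adjusted p = 0.735 and 0.228).

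The difference in NPM1 was smaller at each later time. At 1 h its CPM was 209.2, 206.4, 197.3 and 197.9, still above every control (log2 0.11 ± 0.0383, edgeR adjusted p = 0.318). At 2 h the range was 187.5 to 206.8 and at 4 h 192.5 to 199.5, both overlapping the controls. At 24 h it was 196.5, 190.1 and 182.7, with 2 of 3 libraries inside the control range. The 24 h level was below the 0.5 h level by a log2 difference of -0.17 ± 0.0413 (edgeR adjusted p = 0.052), and the test over the time course gave 0.0796.

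Libraries of 1 harvest share a replicate number, and with that number as a block in the fit the NPM1 calls at 0.5 h and at 24 h against 0.5 h had edgeR adjusted p-values of 0.00237 and 0.00494. NPM1 was the 1 gene of the 36 called at 0.5 h in this fit, where 2.48% of all genes were called and 1.12% rose. At 1 h it was called together with UTP20, both higher (NPM1 adjusted p = 0.0815), where 3.25% were called and 1.49% rose, but NPM1 was not when any 1 replicate was left out (0.171 to 0.382). At 2 and 4 h none of the 36 was called with the block, against 2.43% and 2.49% of all genes. Leaving out any 1 replicate number without the block took the 0.5 h call away, with edgeR adjusted p-values of 0.345, 0.213, 0.544 and 0.237 without replicates 1, 2, 3 and 4. With the block it stayed called in each of these 4 fits, at adjusted p-values up to 0.0613, and its log2 fold change was 0.14 to 0.19. The call at 24 h against 0.5 h was lost without the block when any 1 replicate was left out (0.15 to 0.49), and with it only without replicate 3 (0.118).

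HEATR1, at chr1:236549005-236604516 on the minus strand, encodes a large scaffold of the early small subunit processome. In DMSO its CPM was 117.9, 115.8, 124.7 and 110.2. At 0.5 h it was 122.1, 115.1, 128.9 and 124.0. At 24 h it was 106.4, 111.0 and 109.9, below all 4 libraries of 0.5 h and overlapping only the lowest control. From 0.5 to 24 h it fell by 0.17 ± 0.0471 on the log2 scale (edgeR adjusted p = 0.0981, or 0.0175 with the block). Against DMSO the 24 h log2 fold change was -0.10 ± 0.0472, which was not called (edgeR adjusted p = 0.647). Without the block the call was lost when any 1 replicate was left out (adjusted p-values from 0.15 to 0.565), and with it when replicate 2, 3 or 4 was left out (0.101, 0.282 and 0.113).

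UTP20, at chr12:101280105-101386618 on the plus strand, is another scaffold of the small subunit processome and holds the E-box shown above. Its CPM was 71.31, 77.23, 83.1 and 80.12 in DMSO. At 1 h it was 90.27, 87.54, 86.19 and 87.15. All 4 libraries at 1 h lay above all 4 controls, with a log2 fold change of 0.17 ± 0.0506. The edgeR adjusted p was 0.163 without and 0.0583 with the block, and in the blocked fit the call was lost when any 1 replicate was left out (0.126 to 0.254). At 24 h UTP20 was at 77.01, 80.25 and 82.24 CPM, inside the control range.

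The 5 genes that followed UTP20 by p over the time course were not called in either fit. PES1, a large subunit assembly factor, was at 20.35, 17.42, 21.12 and 19.55 CPM in DMSO and at 26.66, 22.14, 20.53 and 20.88 at 0.5 h, with 2 of 4 treated libraries inside the control range (log2 0.19 ± 0.0855, edgeR adjusted p = 0.655). POLR1C, a subunit shared by RNA polymerases I and III, was at 52.38, 51.85, 50.96 and 54.93 CPM in DMSO and at 59.09, 55.75, 60.6 and 62.8 at 0.5 h. The 4 treated POLR1C libraries were above all controls (log2 0.18 ± 0.0651, edgeR adjusted p = 0.384). Of the POLR1C span 76.0% lies opposite XPO5, which is 1 of 5 genes on the other strand there.

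NOP2, an RNA methyltransferase of the large subunit pathway, had the opposite sign at 0.5 h. It was at 18.65, 18.79, 16.25 and 16.02 CPM in DMSO and 14.97, 16.81, 15.62 and 15.55 at 0.5 h, lower in 4 of 4 pairs with 1 treated library inside the control range (log2 -0.14 ± 0.0871, edgeR adjusted p = 0.798). GAR1, a box H/ACA protein, was at 12.24, 13.58, 11.6 and 12.8 CPM in DMSO and 10.41, 11.83, 10.77 and 9.048 at 1 h, lower in 4 of 4 pairs with 1 treated library inside the control range. NIFK, which binds the proliferation antigen Ki-67, was at 18.65, 22.36, 18.68 and 17.94 CPM in DMSO and 20.82, 21.49, 22.88 and 21.23 at 1 h, where the DMSO replicate 2 library lay among the treated ones. The edgeR adjusted p at 1 h was 0.512 for GAR1 and likewise 0.512 for NIFK.

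**Figure D4:**
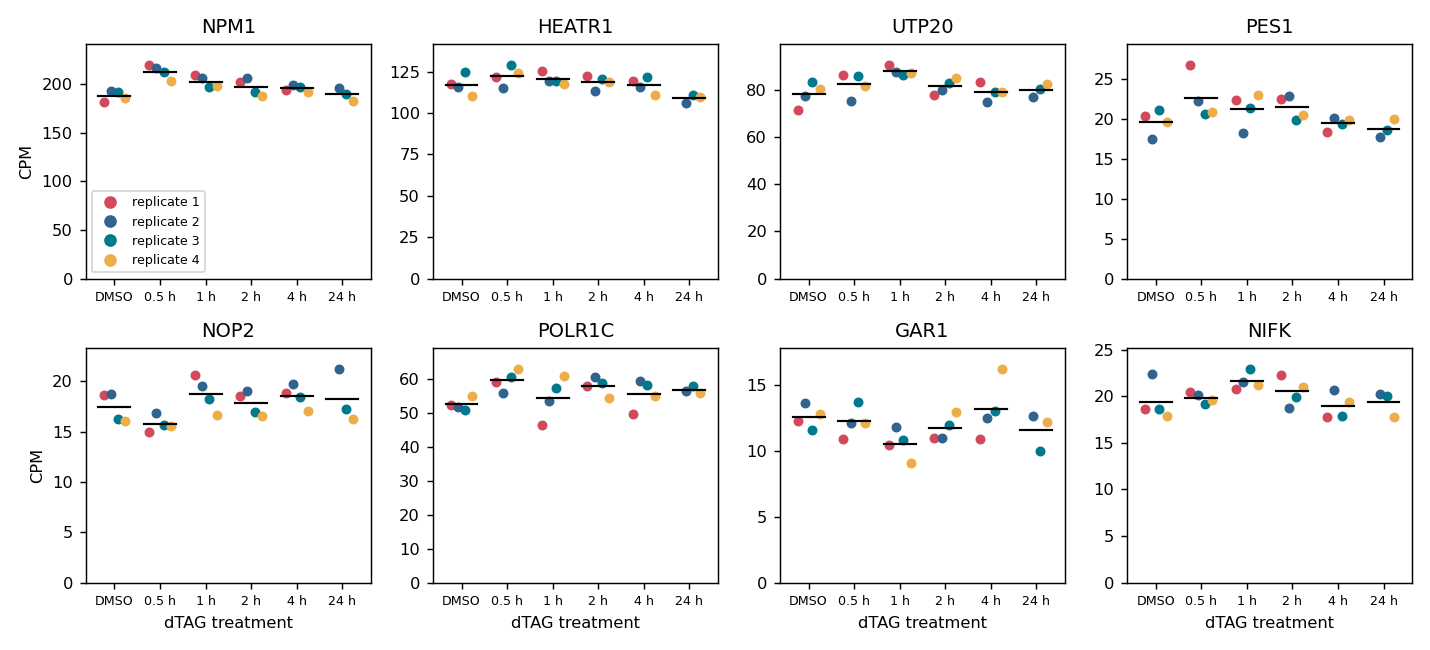
CPM of the 8 genes given library by library (y axis, from 0) in DMSO and at each time of dTAG (x axis). Points are libraries coloured by replicate number and black bars are group means. In NPM1 the 0.5 h points (203.2 to 219.5) sit above the DMSO points (182.2 to 192.9), and the 24 h points (182.7 to 196.5) overlap them.

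Most of the genes were slightly higher early, without passing the test. At 0.5 h 28 of 36 had a positive log2 fold change and the median was 0.082, where the median of all genes was 0.0098 and 53.2% of them were positive. At 1 h 27 of 36 were positive with a median of 0.072. The median was 0.0054 at 2 h, 0.011 at 4 h and -0.064 at 24 h, with 19, 19 and 10 of 36 positive, while medians of all genes stayed between 0.0026 and 0.0143 at the 5 times. Between 24 h and 0.5 h the median difference was -0.14, and 34 of 36 genes were lower at 24 h, the exceptions being NOP2 and UBTF, while the median of all genes was -0.0061 with 48.4% positive. Without replicate 1 the median difference of the 36 genes was -0.13, again with 34 lower.

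**Figure D5:**
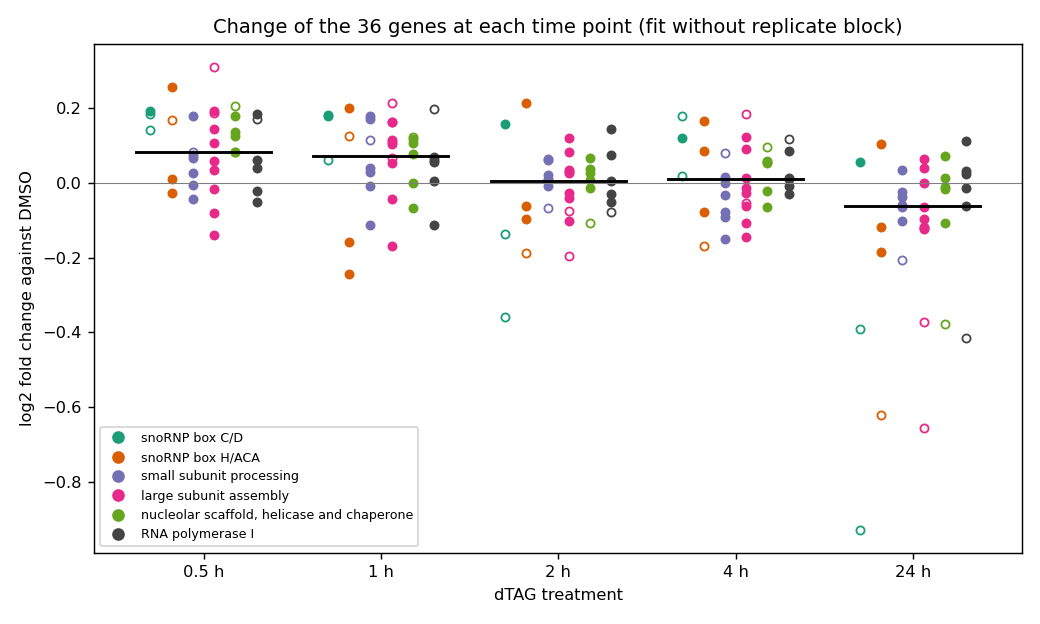
Log2 fold change against DMSO of each of the 36 genes at 5 times of dTAG, from the fit without a replicate block. Points are genes coloured by role, open for the 8 hosts, and black bars are medians, which run from 0.082 at 0.5 h to -0.064 at 24 h. The 8 hosts form the low tail at 24 h, down to -0.93 for NOP56. Values are as counted, and 24 h has no replicate 1 library, the number in which the summed host CPM was highest.

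Part of this early difference came with replicate 1. In same-numbered pairs at 0.5 h the median of the 36 genes was 0.15 in replicate 1 and 0.002, 0.053 and 0.043 in replicates 2, 3 and 4. Without replicate 1 the fitted median was 0.026 at 0.5 h and 0.050 at 1 h, with 24 and 27 genes positive. By pairs, 8 genes (22.2%) were higher in 4 of 4 at 0.5 h, against 10.6% of all genes, and 1 gene, NOP2, was lower in all 4. These 8 were FBL, NHP2, RRP9, BOP1, NPM1, NOLC1, DDX21 and POLR1C, of which none is a host. At 1 h 9 genes (25%) were higher in all 4 pairs, against 10% of all genes, and NPM1 and FBL, the box C/D methyltransferase, were so at both times. At 24 h, where there are 3 pairs, 13 genes (36.1%) were lower in all 3, against 16.3% of all genes. Among these were all hosts except PPAN, as counted with their nested small RNA genes. The nested share of the hosts together was also lower in each 24 h library than in its DMSO pair. Of the 28 non-hosts, only GAR1, HEATR1, RRP12, BYSL, WDR12 and NOP16 were among them.

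By role, medians at 0.5 h were all positive over 4 replicates, but not without replicate 1. In the fit of all libraries the median log2 fold change was 0.18 for the 3 box C/D genes, 0.13 for the 6 scaffold, helicase and chaperone genes, 0.087 for the 4 box H/ACA genes, 0.081 for the 10 large subunit genes, 0.065 for the 7 small subunit genes and 0.050 for the 6 RNA polymerase I genes. Without replicate 1 the medians were -0.034 for box C/D, where only FBL stayed positive, and -0.065 for box H/ACA, and between 0.0088 and 0.095 for the other roles. All 6 scaffold, helicase and chaperone genes were positive in both fits, from 0.08 to 0.21 with all libraries. Among box H/ACA genes NHP2, which binds the guide RNA, had the largest value of any non-host. NHP2 was at 11.81, 13.58, 12.67 and 13.2 CPM in DMSO and at 14.97, 16.4, 15.34 and 14.53 at 0.5 h, so the groups did not overlap, but its log2 fold change of 0.26 ± 0.1096 was not called (edgeR adjusted p = 0.558, and 0.203 with the block). Within the large subunit group the values at 0.5 h ran from -0.14 in NOP2 to 0.31 in the host PPAN.

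Most RNA polymerase I genes had values near 0. POLR1A, the largest subunit, had log2 fold changes between -0.01 and 0.07 over the 5 times, and POLR1B, the second largest, between -0.06 and 0.00. UBTF, the nucleolar HMG-box factor that opens ribosomal DNA, was between -0.11 at 1 h and 0.03 at 24 h. RRN3, which brings the polymerase to its promoter, was between 0.01 and 0.07. None of these 4 was called at any time by edgeR with or without the block.

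At 24 h the hosts and the non-hosts gave different pictures. All 8 hosts had negative log2 fold changes, from -0.21 in WDR43 to -0.93 in NOP56, with a median of -0.40, but with SEs as large as 0.6714 in NOP56 none was called. The 28 non-hosts had a median of -0.021, with 10 positive. Since the 24 h group lacks the replicate number in which nested counts were highest, treatment and replicate cannot be told apart in the hosts without the block or without leaving replicate 1 out of all groups. With the block the host median was -0.16. With nested counts also subtracted, PPAN was at 0.05 ± 0.1223, GNL3 at -0.01 ± 0.0492 and NOP56 at -0.25 ± 0.1816, none of them called.

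WDR12 was the non-host that the block brought under the threshold at 24 h. It lies at chr2:202874261-203014798 on the minus strand and was at 49.53, 51.85, 57.62 and 54.62 CPM in DMSO and at 49.95, 48.78 and 49.12 at 24 h. Every 24 h library was below the control of its number, though the lowest control lay among them. The log2 fold change was -0.12 ± 0.0716 (edgeR adjusted p = 0.821) and -0.16 ± 0.0454 with the block (0.0774), where 2.65% of all genes were called and 1.22% fell. In the blocked fit the call held without replicate 1 (0.0664) and was lost without replicate 2, 3 or 4 (0.181, 0.704 and 0.264).

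GNL3, the nucleostemin gene, at chr3:52681156-52694497 on the plus strand, was called at 0.5 h only with nested counts subtracted and the block together. As counted it was at 94.66, 75.31, 56.83 and 62.39 CPM in DMSO and at 133.3, 72.97, 61.75 and 62.43 at 0.5 h, with replicate 1 far above the rest in both. With the nested counts subtracted it was at 43.56, 49.11, 45.81 and 47.07 CPM in DMSO and at 50.52, 57.9, 52.24 and 50.02 at 0.5 h. In this form all 4 treated libraries lay above all 4 controls. The log2 fold change at 0.5 h was 0.19 ± 0.2716 as counted (edgeR adjusted p = 1), 0.14 ± 0.0671 with the block alone (0.382), 0.18 ± 0.0565 with subtraction alone (0.263) and 0.18 ± 0.0453 with both (0.0452). In that last fit GNL3 and NPM1 were called at 0.5 h, both higher, where 2.48% of all genes were called and 1.12% rose.

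After subtraction with the block, 24 h against 0.5 h called 5 of 36 genes, where 6.36% of all genes were called and 2.89% were lower. These were NPM1, HEATR1, GNL3 (log2 -0.19 ± 0.0479, edgeR adjusted p = 0.0279), DKC1 (-0.24 ± 0.0603, 0.0264) and NOP58 (-0.19 ± 0.0626, 0.0926). All 5 were lower at 24 h. As counted with the block, 3 were called, NPM1, HEATR1 and GNL3, where 6.34% of all genes were called and 2.88% were lower. Over the time course the block called NPM1 and GNL3, where 9.01% of all genes were called.

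Leaving out replicate 1 changed the host result most. In the blocked fit of replicates 2 to 4, 5 genes fell at 24 h, NOP56, NOP58, DKC1, GNL3 and WDR12, where 4.16% of all genes were called and 2.4% fell. With nested counts subtracted 2 did, NOP56 and WDR12, where 4.15% were called and 2.4% fell. Over the time course 8 genes were called as counted, 7 of the hosts and NPM1, and 6 after subtraction, where 12% of all genes were called in each. NOP56, at chr20:2652593-2658393, was at 122.8, 68.57 and 99.68 CPM in these 3 DMSO libraries and at 72.41, 56.25 and 64.58 at 24 h. At 2 h it was at 69.09, 58.47 and 68.2, and at 4 h at 59.68, 58.56 and 71.48. Each of these 9 values was below the DMSO library of its number.

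After subtraction, the NOP56 log2 fold changes in this fit were -0.36 ± 0.1058 at 2 h, -0.42 ± 0.1083 at 4 h and -0.36 ± 0.1061 at 24 h (edgeR adjusted p = 0.0947, 0.0463 and 0.075). NOP56 was the only one of the 36 called at 2 h or 4 h in this fit, where 3.01% and 3.1% of all genes were called and 1.77% and 1.61% fell. In replicate 1, NOP56 was higher at 4 h, at 378.5 CPM against 199.8 in DMSO. All annotated snoRNA genes together took 0.441%, 0.234% and 0.308% of the counts in DMSO replicates 2 to 4. In these replicates they took 0.239%, 0.187% and 0.227% at 2 h, and 0.211%, 0.192% and 0.23% at 4 h. At 24 h they took 0.257%, 0.167% and 0.199%, so each share was below that of the DMSO library of its number. Whether NOP56 followed this share or the treatment was not tested.

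The wider pathway was read from 101 other ribosome biogenesis genes, a list written from general knowledge. None of the 101 was called at 0.5, 1, 2, 4 or 24 h by edgeR, where 8, 6, 1, 2 and 2 had an unadjusted p under 0.05 (of all genes 7.68%, 9.42%, 7.1%, 7.47% and 7.38%), and DESeq2 called 1 at 0.5 h, RRP15. Their median log2 fold changes were 0.054, 0.020, 0.027, 0.003 and -0.011 at the 5 times, in the order of time. At 0.5 h their pair medians were 0.035, 0.017, 0.070 and 0.040 in replicates 1 to 4, below that of the 36 genes in replicates 1 and 4 and above it in replicates 2 and 3, and the difference between the lists was not tested. From 0.5 to 24 h the median was -0.060, and 1 of 101 was called, RRP15.

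RRP15, a large subunit processing factor, was at 64.05, 58.16, 67.86 and 60.37 CPM in DMSO. At 0.5 h it was at 75.0, 68.66, 71.32 and 72.51, above all controls. At 24 h it was at 60.86, 62.44 and 60.66, back inside the control range. It fell by 0.23 ± 0.0553 on the log2 scale between 0.5 and 24 h (edgeR adjusted p = 0.0466), and against DMSO at 0.5 h its adjusted p was 0.141 without and 0.0346 with the block. The 24 h against 0.5 h call was lost when any 1 replicate was left out without the block (0.117 to 0.407). With the block 2 of the 101 rose at 0.5 h, RRP15 and NUFIP1, 1 rose at 1 h, ESF1, and 6 were lower at 24 h than at 0.5 h, where 1.12%, 1.49% and 2.88% of all genes were called in these directions. The 2 calls at 0.5 h became 3, 1, 1 and 0 without replicates 1, 2, 3 and 4. At 1 h 1 gene was called without replicate 2 and none without replicate 1, 3 or 4. The 6 at 24 h against 0.5 h became 10, 3, 1 and 1. Of all genes, these fits called 2.72%, 0.743%, 0.415% and 0.603% at 0.5 h, in the same order. At 24 h against 0.5 h they called 7.16%, 2.46%, 1.24% and 1.8%, and at 1 h 1.4% without replicate 2.

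MYC, the transcription factor that binds E-boxes, was at 67.04, 63.65, 63.7 and 56.44 CPM in DMSO and at 72.04, 72.87, 68.26 and 66.38 at 0.5 h. It was higher in 4 of 4 pairs, with 1 treated library inside the control range. Its log2 fold change at 0.5 h was 0.16 ± 0.0695, which was called with the block (edgeR adjusted p = 0.0762) but not without it (0.593), nor with it when any 1 replicate was left out (0.106 to 0.451). At 1, 2, 4 and 24 h the log2 fold changes of MYC were 0.01, 0.01, -0.05 and 0.00.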

How the data were processed

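PRO-seq libraries of 23 dishes of T47D clone 28 were used, grouped by their labels into DMSO (n = 4), dTAG for 0.5, 1, 2 and 4 h (n = 4 each) and 24 h (n = 3). Replicate 1 at 24 h was not analysed here. Per the study's methods, the authors trimmed adapters, removed duplicates by molecular identifier, discarded ribosomal DNA reads, aligned the rest and used bedtools to count reads per gene. The submitters' processing notes name hg38, cutadapt 1.8.1, Bowtie2 2.4.4 and SAMtools 1.9. The values the authors deposited are raw counts per gene. Which annotation was counted, and whether by strand, is not given in the sources used here. GENCODE 44 matched 60463 of 60605 identifiers.

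Counts were filtered with filterByExpr (minimum count 10, minimum total 15), scaled by TMM and tested in 1 fit of 6 groups with edgeR 4.0.16 (R 4.3.3, limma 3.58.1; glmQLFTest, two-sided, Benjamini-Hochberg over 26057 genes, threshold 0.1). The study's methods name no covariate, so the fit had no replicate term. CPM is scaled to TMM-adjusted library sizes, except for the summed marker lists, which were scaled to total counts. The treatment protocol in the labels puts the treatment and collection of each replicate at its own time of 1 day, so libraries of 1 number were taken as 1 harvest. Their deviations from group means correlated at a mean r of 0.578, 0.0896, 0.434 and 0.141 for numbers 1 to 4, against -0.0825 between numbers. Deviations sum to 0 within a group, so correlation within numbers pulls that between numbers below 0, and -0.0825 is not an independent baseline. The common dispersion was 0.0249 without and 0.00489 with the replicate block. Nested small RNA counts were annotated snoRNA, scaRNA, snRNA and miRNA genes inside a gene's span on its strand.

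Alternatives were the block, DESeq2 1.42.0, scaling by total counts or by median-of-ratios factors, keeping low-count genes, leaving out each replicate number, subtraction of nested counts and a fit from DMSO to 4 h. Subtraction with the block, and fits with the block that left out a replicate, were added after seeing the data. The 36 genes and all lists were chosen with earlier results of these data known. Values in every library are given for called genes, filled to 8 by the smallest p over the time course, for called genes among the 101 others, and for MYC. GNL3, WDR12, NHP2 and NOP56 were added after their values were seen.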

Additional observations from a re-analysis of the deposited data

Results flagged for a closer look

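Of 55 groups of 4 libraries examined (8 genes and 3 summed quantities), 7 held a library that lay far from the other 3, where chance alone gives about 1 in 20. Of these, 6 were in replicate 1 for the host genes. They came from the libraries at 0.5, 2 and 4 h, each flagged by both the summed CPM and the nested share. Both quantities use the same host counts, so the 7 are not separate events to set against 1 in 20. The summed CPM of the 8 hosts in replicate 1 was 1931 at 0.5 h, with the other 3 libraries at 760.1 to 797.3, 1301 at 2 h with the others at 688.5 to 742.9, and 1889 at 4 h with the others at 697.4 to 746.0. The nested small RNA share of the hosts in replicate 1 was 41.8% at 0.5 h against 11.1% to 15.5%, 34.1% at 2 h against 9.94% to 12.8%, and 39.6% at 4 h against 9.69% to 13.7%. The remaining one was NIFK in DMSO replicate 2, at 22.36 CPM against 17.94 to 18.68 in the other 3 controls.

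Effects differed between 0.5 and 24 h in 3 genes by the edgeR test of the difference itself, 2 of the 36 and 1 of the 101 others. The same test called 1.99% of all genes. Without the block, all 3 calls were lost when any 1 replicate was left out. The log2 difference, 24 h minus 0.5 h, was -0.1660 in NPM1 (adjusted p = 0.052), -0.1672 in HEATR1 (0.0981) and -0.2282 in RRP15 (0.0466).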

How the results depend on the processing

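Among the 36 genes, with total counts only or no low-count filter 0 were called at 0.5 h, over the time course and at 24 h against 0.5 h, and the fit from DMSO to 4 h called 0 over the time course. The replicate block called 2 at 1 h, 1 at 24 h and 2 over the time course. Beyond NPM1 and UTP20 at 1 h, WDR12 at 24 h, and GNL3 over the time course and at 24 h against 0.5 h, it changed no call among the 36. With nested counts subtracted and the block, 2 were called at 0.5 h, 2 at 1 h, 1 at 24 h, 3 over the time course and 5 at 24 h against 0.5 h. In the same fit and order, 2.48%, 3.25%, 2.65%, 9.02% and 6.36% of all genes were called. Fits that left out 1 replicate, with or without the block and the subtraction, called 0 to 2 at 0.5 h. They called 0 to 1 at 2 h, 0 to 1 at 4 h and 0 to 5 at 24 h. Over the time course they called 0 to 8, and in the contrast of 24 h with 0.5 h 0 to 6. Without the block these were 0 throughout, and the highest numbers came without replicate 1. The blocked fit behind the 5 called 4.16% of all genes. For the 8 this share was 12%, against 9.01% with the block and all replicates. With subtraction as well, 7.18% of all genes were called where the 6 were, and 2.73% where the 2 were. The single calls came in comparisons with 3% to 3.1% of all genes called.

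Of the 101 other genes, the block called 2 at 0.5 h, 1 at 1 h and 6 at 24 h against 0.5 h, the same numbers as with subtraction. DESeq2 called 1 at 0.5 h and 2 at 24 h against 0.5 h, where total counts and no low-count filter called 0. Of all genes that DESeq2 tested, it called 1.88% and 5.14% in these 2 comparisons. Leaving out 1 replicate gave 0 to 3 at 0.5 h, 0 to 1 at 1 h, 0 to 1 at 24 h and 0 to 10 at 24 h against 0.5 h. The 3 and the 10 came with the block and without replicate 1, where 2.72% and 7.16% of all genes were called. The median of the 36 genes at 4 h was -0.0335 with total counts only and between -0.0358 and 0.0258 with 1 replicate left out, -0.0356 being the value without replicate 1 and without the block. At 24 h it was -0.0282 with total counts only, -0.0308 with subtraction and block, and between -0.0882 and -0.0163 with 1 replicate left out. Over 16 alternatives the NPM1 log2 fold change at 0.5 h lay between 0.144 and 0.192, called in 10. The cause of these changes was not tested. The lowest count of the 36 genes in a library was 27, in RRP9.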
